A study of Rattus norvegicus with 36 samples.

Results

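The baseline liver transcriptome described here is that of the corn oil vehicle group of a rat study of TBPH, bis(2-ethylhexyl) tetrabromophthalate, a brominated flame retardant. Its members are the 6 arrays labelled as vehicle replicates 1 to 6, out of 36 arrays in the series, and no dosed group is set against them. All 6 come from male Harlan Sprague Dawley rats, 7 weeks of age when dosing began, that received corn oil (0 mg/kg TBPH) by gavage at 5 ml/kg on 5 days in a row, with necropsy on the next day. The rats ate NTP-2000 diet, and RNA came from the left lobe of the liver, stored in RNAlater. Nothing in the labels ties each array to a rat of its own, so the spread between arrays given throughout may be partly technical. The readout was an Affymetrix 3′ expression array with 31042 probe sets besides its controls. Each value is a log2 signal, so a difference of 1 is a doubling of signal.

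Hepatocytes make up most of the mass of the liver and secrete most plasma proteins, including albumin, clotting factors, apolipoproteins and protease inhibitors. They also run the urea cycle, make glucose and bile acids, and clear drugs and steroids through cytochromes P450 and conjugating enzymes. In rats a part of this enzyme set differs by sex, because growth hormone reaches the male liver in pulses. Kupffer cells, sinusoidal endothelium, stellate cells and bile duct cells share the tissue. The ranking below is of probe set signal, which depends on the binding strength of the probes as well as on RNA amount, so a place in the ranking is a place among signals.

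The 4 markers of hepatocytes were bright on every array, as the liver label implies. Apoa1, the main protein of high-density lipoprotein, read 13.71, 13.63, 13.51, 13.50, 13.52 and 13.50 in replicates 1 to 6. Tdo2, which opens the tryptophan ring in hepatocytes, read 12.60, 12.60, 12.95, 12.70, 12.84 and 12.69. Cyp1a2, a P450 of central-vein hepatocytes, read 13.005, 13.09, 13.10, 12.99, 13.08 and 13.05. Cyp2c11, the main male P450 of rat liver, read 13.43, 13.45, 13.65, 13.57, 13.65 and 13.55. By mean each was among the 167 brightest of 31042 probe sets, and no array stood apart for any of them.

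Signals ran from 1.89 to 14.77, with a median probe set mean of 5.10 and medians of 5.09 to 5.12 on single arrays. Across probe sets the correlation between arrays was 0.993 to 0.995, a description that all arrays share through the same probes. Replicate 3 lay farthest from the group mean (root mean square deviation 0.174) and replicate 4 nearest (0.146). The 18 hybridisation spikes had a median SD of 0.087 and the 24 poly-A spikes, which enter before labelling, one of 0.238. The poly-A spikes had mean deviations of 0.24, -0.37, -0.12, 0.051, 0.065 and 0.14 in replicates 1 to 6, and the 5S rRNA control read 1.26 above its mean in replicate 1. How far these differences bear on the genes below was not tested.

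The top of the ranking was held by secreted proteins. Albumin (Alb), the most abundant plasma protein, had the brightest probe set of all on every array, at 14.75, 14.76, 14.77, 14.76, 14.75 and 14.76, an SD of 0.0091. Among probe sets with a gene name it was followed by Ttr (14.34 ± 0.021), the carrier of thyroxine and of retinol-binding protein, Gc (14.28 ± 0.0078), the vitamin D-binding protein, and Apoc3 (14.27 ± 0.026), an inhibitor of lipoprotein lipase. Serpina1 (14.23 ± 0.039), the main inhibitor of neutrophil elastase, came next. All values after ± are SDs over the 6 arrays. The 20 brightest genes had means between 13.97 and 14.76.

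Of the other 15, Apoe, Apoh and Apoc1 are carried on lipoproteins. Fgg (14.16 ± 0.031), Fga (14.03 ± 0.033) and Fgb (13.99 ± 0.037) are the 3 chains of fibrinogen. Hp, which binds haemoglobin, Ambp, Ahsg, C3, Rbp4 and Serpina3l are further plasma proteins. Rup2 (14.10 ± 0.048) was read by a probe set whose suffix marks probes shared with other transcripts, so its level is uncertain. Only Fabp1 (14.01 ± 0.065), the fatty acid-binding protein of the hepatocyte cytosol, and COX2 (14.20 ± 0.023), a mitochondrially encoded subunit of cytochrome oxidase in the array's annotation, act inside the cell. The lowest rank that any of the 20 took on any array was 31 of 31042, taken by Rbp4 and Serpina3l. The largest SD among the 20 was that of Fabp1. Probe sets without a single gene name were left out of this list, and 5 of them had means of at least 14.10, led by 1370228_at at 14.41 ± 0.014.

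The promoter of Alb is shown because it belongs to the brightest gene. The sequence is that of RefSeq on build GRCr8 and covers the 150 bases before the start site (chr14:17906980-17907129, minus strand). Capitals mark the CCAAT box, searched as CCAAT on both strands, which starts at -106 and -65 counted from the start site. That motif is common, being present in the 250 bases before the start of 34% of 33469 genes in the table.
Alb: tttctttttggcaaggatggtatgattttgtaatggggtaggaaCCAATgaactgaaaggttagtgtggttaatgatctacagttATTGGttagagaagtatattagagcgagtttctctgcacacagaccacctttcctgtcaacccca

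**Figure D1:**
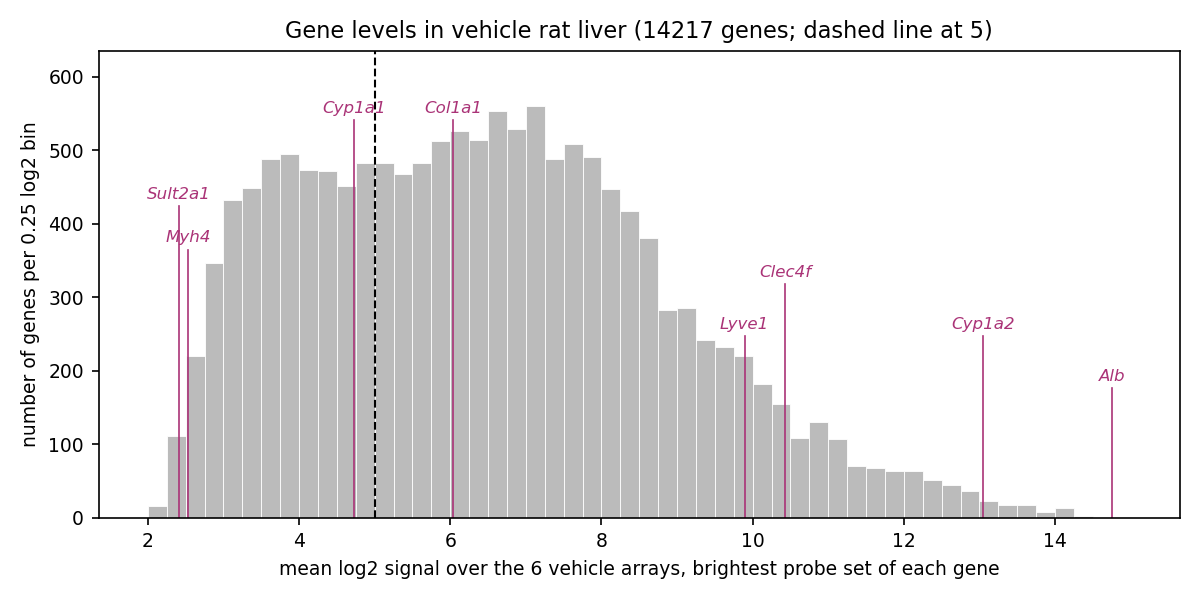
Histogram of gene levels in the vehicle livers. The x axis is the mean log2 signal over 6 arrays of each gene's brightest probe set, the y axis the number of genes in bins of 0.25, the dashed line stands at 5 and 8 named genes are marked. Alb lies at 14.76, at the far right, and Sult2a1 (2.41) and Myh4 (2.53) lie at the left edge.

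Plasma protein genes as a list had a median level of 13.53 over 51 measured members, against 6.35 over all 14217 genes, and 42 of the 51 read at least 12. The clotting factors F2 (13.24 ± 0.027) and F9 (12.89 ± 0.042) were among them, with the complement protein C9 (13.03 ± 0.14) and Hamp (12.95 ± 0.25), the hormone that lowers iron release. A1bg (3.59 ± 0.29), a plasma protein known as female-biased in rats, was the only member under 5. Igf1 (13.34 ± 0.09), the growth factor that growth hormone induces in liver, was also near the top, while its serum partner Igfals read 10.28 ± 0.37.

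Enzymes of the urea cycle and of amino acid breakdown had a median level of 11.06, and 34 of 35 read at least 8. Cps1 (13.26 ± 0.11), which makes carbamoyl phosphate in the first step of the cycle, was the brightest, and the serine-degrading Sds (5.92 ± 0.69) the dimmest. For Sds a single array carried most of the spread: it read 5.71, 5.47, 7.23, 5.50, 5.46 and 6.12, with replicate 3 above the rest. In sugar metabolism Ldha (13.03 ± 0.069) and the gluconeogenic Pck1 (12.86 ± 0.36) and Fbp1 (12.53 ± 0.08) led, and Ppargc1a (4.999 ± 0.24), a coactivator of the fasting response, came last. Among transcription factors of the hepatocyte Hnf4a (11.84 ± 0.23) was the brightest and Esr1 (3.98 ± 0.38), the oestrogen receptor, the dimmest.

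The male-biased enzymes of rat liver were bright, and the female-biased ones were mixed. All 11 measured genes listed as male-biased read at least 8, and 9 read at least 12. Cyp3a2 (13.85 ± 0.08), Cyp2c11 (13.55 ± 0.094) and Cyp2c13 (13.51 ± 0.049) are male P450s, and Hao2 (12.92 ± 0.071) is a peroxisomal oxidase. Among 11 genes listed as female-biased, Sult2a1 (2.41 ± 0.13), a hydroxysteroid sulfotransferase, Cux2 (3.09 ± 0.16), a repressor, and A1bg (3.59 ± 0.29) read under 5. Others of that list were bright, with Cyp2c7 at 13.08 ± 0.30 and Cyp2c12 at 11.13 ± 0.67. Cyp2c12, the textbook female P450, read 11.30, 11.28, 11.31, 9.78, 11.53 and 11.57, so that replicate 4 lay below the other 5. Cyp2c genes are close copies of each other, and what share of this signal came from other members was not tested.

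Drug-metabolising families combined very bright and near-floor members. Of 42 genes in the Cyp1 to Cyp4 families 16 read at least 12, against 280 of all 14217 genes. Under 5 were 10 (23.8%), a smaller share than the 31.2% of all genes. The families ran from Cyp3a2 (13.85) down to Cyp2b12 (2.68 ± 0.14). Cyp1a2 lay at 13.05 while Cyp1a1 (4.73 ± 0.19), which dioxin-like ligands induce, lay under 5, with the same receptor's target Aldh3a1 at 3.18 ± 0.15. Cyp2e1 (13.65 ± 0.11), the ethanol-oxidising P450, stood near the top of the family. Glutathione transferases had a median of 10.06 over 24 genes, led by Mgst1 (13.97 ± 0.022), a membrane-bound enzyme of the endoplasmic reticulum. Among 14 sulfotransferases the oestrogen-conjugating Sult1e1 (13.19 ± 0.16) was the brightest and Sult1d1 (2.26 ± 0.047) the dimmest. UDP-glucuronosyltransferases, which add glucuronic acid to bilirubin, steroids and drugs, ran from Ugt2b35 (13.31 ± 0.075) to Ugt2b7 (4.76 ± 0.26).

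Bile acid genes were bright as a list, with a median of 10.80 over 21 members. Slc10a1 (12.90 ± 0.069), the sodium-dependent uptake carrier, and Baat (12.81 ± 0.043), which joins bile acids to taurine or glycine, led them, and Cyp7b1 (2.91 ± 0.14), of the acidic pathway, was at the floor. The housekeeping machinery was high apart from a few members. Ribosomal protein genes matched by symbol had a median of 12.23 over 46 genes, respiratory chain subunits 11.12 over 90 and proteasome subunits 9.80 over 37, with none of the 37 under 5. Under 5 were 7 of the 90, down to Cox7b2 (2.96 ± 0.14), and 6 of the 46 ribosomal genes. Among the latter Rpl28 read 2.98 ± 0.17 and Rpl30 3.57 ± 0.12, beside Rps29 at 13.29 ± 0.041. Every cell uses ribosomal proteins such as Rpl28 and Rpl30. For these ribosomal genes a low signal gives the probe set's reading and sets no limit on the RNA.

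Markers of the other liver cell types were measured below the 4 hepatocyte markers. They were not below all hepatocyte genes. The hepatocyte transcription factors had a median of 8.02 and the Kupffer cell and macrophage markers one of 9.33. In bulk liver a lower level can mean fewer cells of a type or less RNA per cell, and these cannot be told apart. Of 12 Kupffer cell and macrophage markers none read under 5, against 31.2% of all genes. Clec4f (10.43 ± 0.21), a lectin of Kupffer cells, was the brightest and Folr2 (6.27 ± 0.24) the dimmest. Of 12 sinusoidal endothelial markers 1 read under 5, with Lyve1 (9.89 ± 0.11), a hyaluronan receptor, at the top and Flt1 (4.76 ± 0.14) at the bottom. Stellate cell and fibroblast markers ran from Col3a1 (11.07 ± 0.30), a fibrillar collagen, to Des (5.38 ± 0.10), an intermediate filament.

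Bile duct markers were low except Epcam (8.74 ± 0.15), an epithelial adhesion protein, and Cftr (3.24 ± 0.19), a chloride channel, was the lowest. Over all genes 31.2% read under 5, and the counts in this paragraph stand beside that share. Lymphocyte markers had 9 of 14 members under 5, from the kinase Lck (6.01 ± 0.12) to the T cell coreceptor chain Cd8b (3.57 ± 0.11). Neutrophil and monocyte markers had 6 of 8 under 5, from Ly6c (5.58 ± 0.29) to Ccr2 (3.08 ± 0.063). Haemoglobin beta (Hbb, 12.42 ± 0.29) was bright while the erythroid transcription factor Gata1 (3.31 ± 0.095) was at the floor, and the range of the erythroid list's mean level over arrays was 5.46 to 5.85. Markers of pancreas, gut, fat and muscle had 13 of 15 under 5, down to the muscle myosin Myh4 (2.53 ± 0.099), with Cela1 (10.22 ± 0.32), an elastase, the bright exception.

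A signal under 5 was taken as near the floor, because most genes of families foreign to liver read there. The counts of those families below are therefore no test of the limit. By this limit 48.5% of all probe sets (15057 of 31042) and 31.2% of genes by their brightest probe set (4436 of 14217) were near the floor. Of 40 gene families, 20 had a median under 5. All 23 vomeronasal and taste receptors did so, the highest being the sweet taste subunit Tas1r3 (4.76 ± 0.066), and so did all 7 defensins, from the Paneth cell peptide Defa24 (4.84 ± 0.16) to Defa7 (2.44 ± 0.062). Olfactory receptors had 15 of 18 there, with Olr59 (7.38 ± 0.32) above the rest. These shares stand beside 31.2% over all genes.

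Genes of excitable cells were low throughout. GABA and glycine receptor subunits had 19 of 20 near the floor, Gabrd (6.98 ± 0.27) being the exception and Glra3 (2.48 ± 0.093) the lowest. Ionotropic glutamate receptor subunits had 14 of 17, from Grin2c (5.81 ± 0.13) to Grik2 (3.16 ± 0.088). Potassium channels had 51 of 65, from Kcnk3 (6.96 ± 0.15) to Kcns2 (2.68 ± 0.13), and sodium and calcium channel alpha subunits 14 of 19, from Cacna1a (6.04 ± 0.055) to Scn1a (2.42 ± 0.061). None of the members of these 4 families reached 8. Muscle filament genes had 29 of 38 near the floor, and their bright members included the non-muscle myosin genes Myl12a (10.37 ± 0.12), Myl12b (9.79 ± 0.078) and Myh9 (9.52 ± 0.16). Myh1, a skeletal myosin, read 11.58 ± 0.15 on a probe set with a cross-hybridisation suffix, so that level is uncertain.

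Developmental genes were likewise dim, with 19 of 24 Hox genes and 10 of 13 Wnt ligands near the floor. Wnt1 (6.44 ± 0.099) was the brightest Wnt and Wnt5a (2.57 ± 0.087) the dimmest. Fibroblast growth factors had 19 of 22 near the floor, and Fgf21 (7.51 ± 1.09), the fasting hormone of liver, was the brightest. In the adhesion families a few epithelial members stood out of a dim background. Of 33 cadherins and protocadherins 28 were near the floor, while Cdh1 (10.54 ± 0.13), Cdh2 (9.84 ± 0.10) and Cdh17 (8.94 ± 0.37) read above 8. Of 16 claudins 10 were near the floor, and Cldn3 (10.19 ± 0.081), Cldn2 (9.08 ± 0.14), Cldn12 (8.85 ± 0.091) and Cldn1 (8.56 ± 0.24) read above 8. Keratins had 15 of 25 near the floor, with Krt18 (10.65 ± 0.16) and Krt8 (10.57 ± 0.39), the filament pair of hepatocytes, above 10.

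Secreted serine proteases of pancreas and mast cells had 39 of 46 members near the floor. Cela1 (10.22) and Prss23 (8.02 ± 0.31) were the members above 8, and Klk1c3 (2.26 ± 0.091) was the lowest. Lens crystallins had 12 of 14 near the floor and sperm proteins 18 of 25. Interleukins and receptors that share their symbols' form had 14 of 27, with Il33 (8.48 ± 0.16), an alarm cytokine, at the top and Il17f (2.59 ± 0.092) at the bottom. Collagens had 23 of 41, with Col18a1 (9.64 ± 0.17), the basement membrane source of endostatin, Col14a1 (8.35 ± 0.20) and Col1a2 (8.09 ± 0.54) above 8 beside Col3a1. Organic anion and cation carriers were split, with 16 of 29 near the floor and Slco1a4 (12.04 ± 0.22) above 12.

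**Figure D2:**
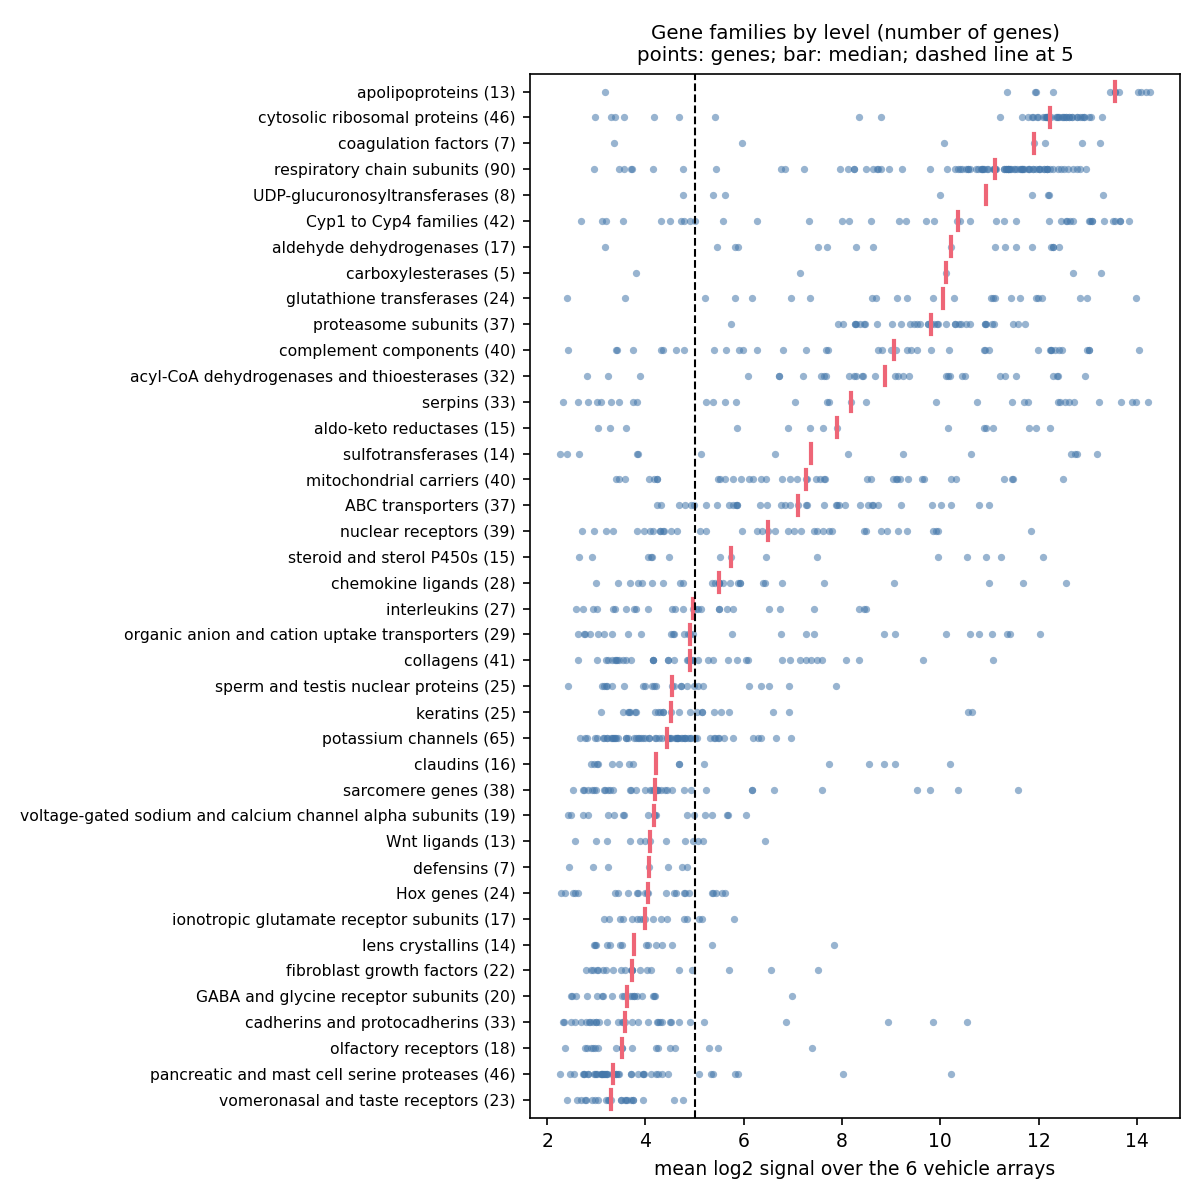
Levels of 40 gene families. The x axis is the mean log2 signal over the 6 vehicle arrays, each point is a gene, the bar is the family's median, the number in brackets counts genes and the dashed line stands at 5. Apolipoproteins have the highest median (13.56) and vomeronasal and taste receptors the lowest (3.30), and cadherins, claudins and keratins show a few bright members apart from a dim majority.

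Most genes differed little between the 6 arrays. The median SD over all probe sets was 0.133 and the 99th percentile 0.494, and 0.97% of probe sets (301) had an SD above 0.5. Taking genes by their brightest probe set, 1.21% (172 of 14217) did. Spread was smallest at the bright end, with a median SD of 0.053 over the 100 brightest probe sets and 0.148 among those with means between 5 and 6. A single SD from 6 arrays is loose, its 95% chi-square interval running from 0.624 to 2.45 times the value. The steadiest genes with a mean of at least 8 were Gc (0.0078), Alb (0.0091), the cytokine-like tautomerase Ddt (0.014), the translocon protein Tram1 (0.016) and the tropomyosin Tpm3 (0.017). Alb and Gc lie at the top of the scale, where probe sets with means of 13 to 15 had a median SD of 0.054. Whether the signal is compressed there was not tested. On every array Alb ranked 1 and Gc 6 or 7. Values had been normalized across arrays, and the part of that step in these small SDs was not tested either.

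To ask which probe sets varied more than others of like level, limma's robust fit of variances against level was used, one-sided, with Benjamini-Hochberg adjustment over all probe sets. It called 0.338% of probe sets (105 of 31042) and 0.471% of genes on their brightest probe set (67 of 14217) at an adjusted p under 0.05. That count rests on the settings: 14 probe sets were called with no trend of spread on level, 5 among probe sets with a mean of at least 5, and 53 without replicate 6. Genes called on their brightest probe set with no trend were Abhd3, Egr1, Gadd45g, Onecut1, RT1-Bb, Serpinb9b and Ugt2b, and Ugt2b alone was called among probe sets with a mean of at least 5. Called without each array in turn were 16 genes (Abhd3, Adh4, Bcl6, Cish, Dusp1, Egr1, Fgf21, Gadd45g, Hhex, Hykk, Inmt, Mx2, Onecut1, Rtp4, Serpina7 and Stac3), and every other called gene lost its call without at least 1 array. The values on each array therefore carry the description below, and a call means adjusted p under 0.05 in the fit with the trend.

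**Figure D3:**
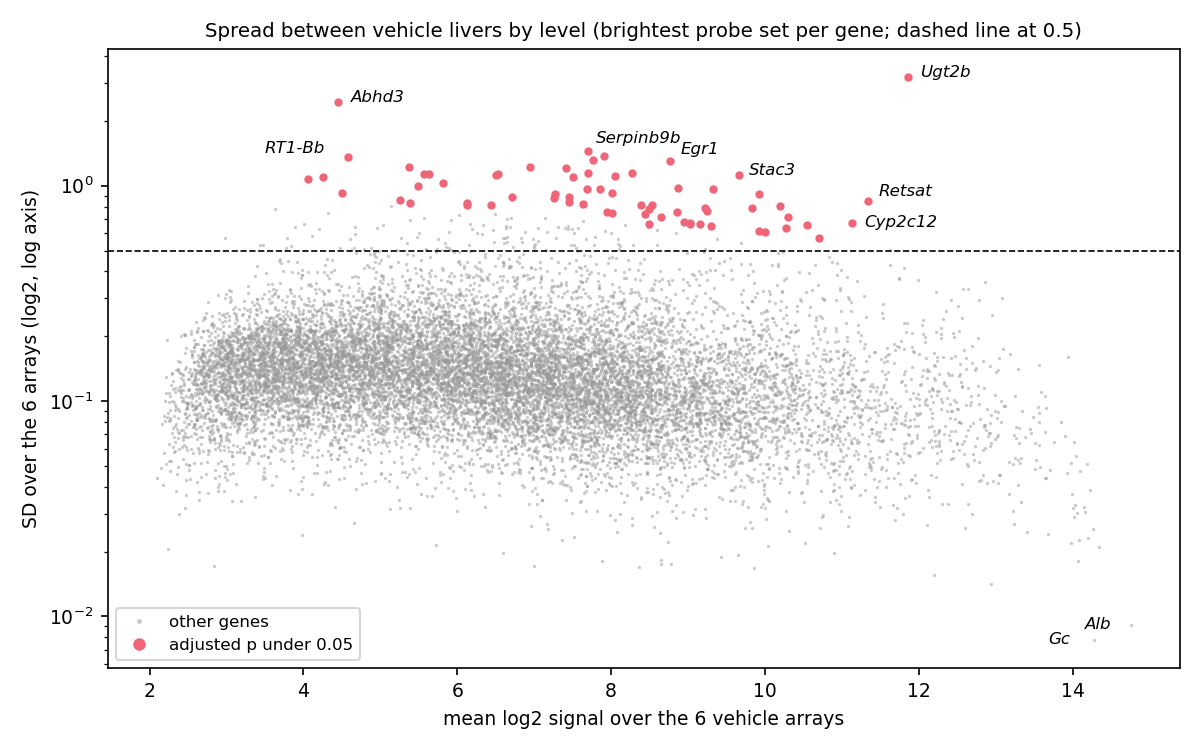
SD over the 6 vehicle arrays (y, log axis) against mean log2 signal (x) for 14217 genes by their brightest probe set. Genes called more variable than others of like level are in red, the dashed line stands at 0.5, and Ugt2b (11.86, SD 3.18) and Abhd3 (4.45, SD 2.44) stand above all others, with Alb and Gc at the lower right.

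The largest spread belonged to Ugt2b, a glucuronosyltransferase gene. It read 13.20, 13.29, 13.18, 13.15, 5.36 and 12.97 in replicates 1 to 6, a range of 7.92 (adjusted p = 2.02e-05, limma). Replicate 5 was near the floor, the other 5 arrays lay within a narrow band, and without replicate 5 the SD was 0.12. Its second probe set read 9.64, 9.81, 9.71, 9.75, 2.72 and 8.63, with the same array low. Of the 8 measured UDP-glucuronosyltransferases 5 were lowest in replicate 5, against 15.1% of all genes, but no other had an SD above 0.5. Ugt2b35 read 13.31, 13.45, 13.28, 13.28, 13.24 and 13.27 and Ugt2b1 12.11, 12.44, 12.29, 12.47, 11.98 and 12.02. Abhd3, a phospholipid-cleaving enzyme, split the arrays differently, at 3.24, 2.87, 2.56, 7.49, 2.86 and 7.70. Replicates 4 and 6 were above 7 and the other 4 near the floor, a description chosen after its values were seen. Its second probe set lay at 3.09 to 3.76 on all arrays.

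Serpinb9b, a relative of granzyme B inhibitors, read 8.11, 8.53, 4.77, 8.11, 8.37 and 8.31, with replicate 3 alone low and an SD of 0.18 without it. Ubd, a ubiquitin-like protein induced by inflammatory cytokines, read 8.33, 7.86, 8.06, 5.08, 7.997 and 7.19, with replicate 4 lowest. Clca2 read 5.49, 8.24, 7.91, 8.49, 7.59 and 8.51, with replicate 1 lowest. These 3 genes thus each had a low reading on a different array. H19, an imprinted non-coding RNA that is abundant in fetal liver, read 6.33, 8.72, 6.03, 5.76, 5.74 and 6.46, with replicate 2 alone high and an SD of 0.33 without it. Cxcl1, a neutrophil-attracting chemokine, read 7.45, 5.42, 4.89, 5.27, 5.25 and 4.67, with replicate 1 alone high and an SD of 0.31 without it.

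Other genes among the 20 most variable were spread over all arrays. Adh4, an alcohol and retinol dehydrogenase, read 5.92, 8.66, 8.22, 6.29, 6.84 and 5.74, with replicates 2 and 3 high. Hykk, a hydroxylysine kinase, read 6.47, 7.44, 9.63, 8.41, 9.05 and 8.65, lowest in replicate 1. Stac3 read 9.18, 7.86, 10.44, 10.67, 9.19 and 10.61, lowest in replicate 2. Nfe2, a transcription factor of blood cells, read 4.43, 4.67, 6.52, 5.90, 4.96 and 7.27, and Ly6al 6.52, 6.41, 5.37, 4.13, 6.11 and 3.66, with replicate 6 at opposite ends of the 2 genes. Gadd45g, a stress-responsive inhibitor of the cell cycle, read 9.11, 9.57, 7.55, 6.65, 7.36 and 6.32, with replicates 1 and 2 high.

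**Figure D4:**
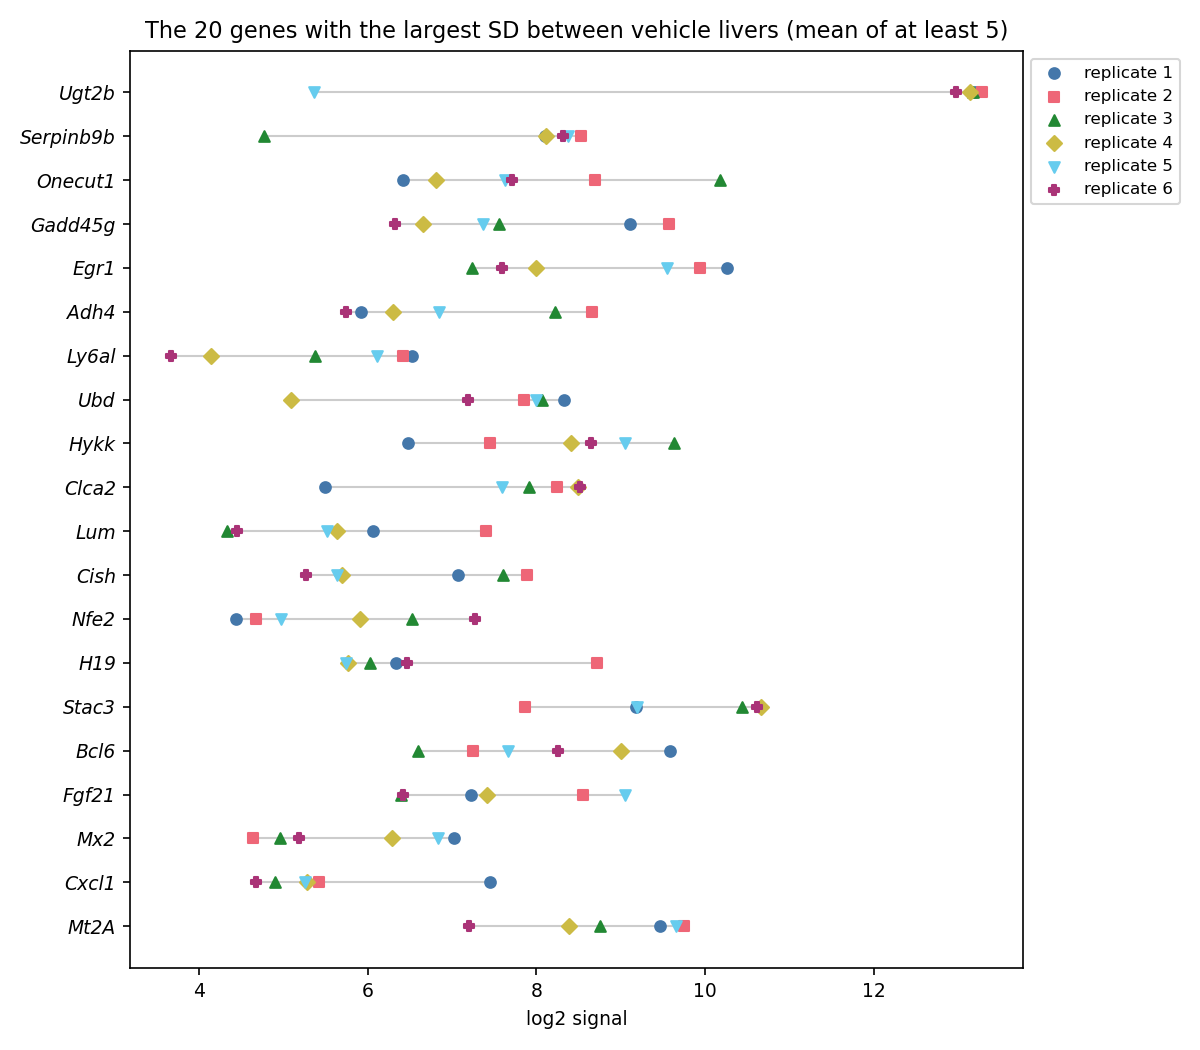
Log2 signal on each vehicle array (x axis; symbols and colours mark replicates 1 to 6) of the 20 genes with the largest SD among those with a mean of at least 5, ordered by SD from the top. Ugt2b, Serpinb9b, Ubd and Clca2 each have a single low array, H19 and Cxcl1 a single high array, and the others spread over the arrays.

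The gene lists that follow are read against all 14217 genes. Over these, 1.21% had an SD above 0.5 and 0.471% were called. Replicates 1 to 6 held the highest value for 21.8, 17.9, 15.5, 15.2, 13.3 and 16.3% of all genes and the lowest for 15.5, 17.4, 18.9, 13.1, 15.1 and 20.03%.

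Growth hormone pulses act on hepatocytes through the transcription factor STAT5, which switches feedback inhibitors on and the repressor Bcl6 off. Of 13 genes of this list 4 had an SD above 0.5 (1.21% of all genes) and all 4 were called (0.471% of all genes), and 4 had an SD above 0.5 without each array in turn too. The median SD was 0.28, against 0.129 over all genes. Cish, a feedback inhibitor of the receptor, read 7.06, 7.89, 7.60, 5.69, 5.63 and 5.27, with replicates 1 to 3 above replicates 4 to 6 (adjusted p = 0.0136, limma). Its second probe set read 6.33, 7.70, 7.14, 5.08, 5.07 and 4.89, in the same split. Socs2, another feedback inhibitor, read 6.55, 8.62, 9.28, 7.59, 8.11 and 7.92, highest in replicate 3 and lowest in replicate 1.

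Onecut1, a hepatocyte transcription factor that growth hormone induces, read 6.41, 8.70, 10.18, 6.81, 7.63 and 7.71, also highest in replicate 3 and lowest in replicate 1 (adjusted p = 0.00408, limma). Bcl6 read 9.58, 7.25, 6.60, 9.004, 7.66 and 8.25, lowest in replicate 3 and highest in replicate 1. On these probe sets the array order of Bcl6 was thus opposite to that of Onecut1 and Socs2 at both ends. A second probe set of Onecut1 was also highest in replicate 3. Its lowest value was in replicate 4 (5.03), with 5.15 in replicate 1. Cish did not follow this order, being lowest in replicate 6 and at 7.06 in replicate 1. The lasting products Igf1 (13.36, 13.21, 13.30, 13.39, 13.32 and 13.48) and Ghr, the receptor (11.92 ± 0.17), stayed within narrow ranges, while Igfals (10.28 ± 0.37) varied more than the list's median. Growth hormone itself was not analysed here.

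The promoter of Cish is shown because its 250 bases before the start site hold 4 matches to the STAT-type GAS motif, searched as TTCNNNGAA on both strands and marked in capitals. They start at -241, -230, -136 and -119. The motif was present in that window in 7.67% of 33469 genes and in 3 of 11 genes of the list with a promoter (Cish, Serpina3n and Socs1). A match is a run of letters and is no evidence of binding. The region is chr8:116850719-116850968, plus strand, in RefSeq build GRCr8.
Cish: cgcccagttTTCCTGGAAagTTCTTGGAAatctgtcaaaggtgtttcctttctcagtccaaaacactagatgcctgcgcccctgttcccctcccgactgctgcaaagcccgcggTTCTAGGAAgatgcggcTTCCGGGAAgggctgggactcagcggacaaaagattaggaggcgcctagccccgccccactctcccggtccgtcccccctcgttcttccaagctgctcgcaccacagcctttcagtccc

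Immediate early genes are switched on within minutes by growth factors and stress, without new protein. Of 23 listed, 6 had an SD above 0.5 and 5 of the 6 were called, against 1.21% and 0.471% of all genes. Near the floor were 9 of the 23 and 31.2% of all genes, and among the 9 were Fos (4.70 ± 0.14) and Fosb (3.04 ± 0.12). Egr1, a zinc finger factor, read 10.26, 9.95, 7.24, 7.997, 9.55 and 7.59, high in replicates 1, 2 and 5 (adjusted p = 0.00408, limma). Dusp1, a phosphatase that turns off MAP kinases, read 9.88, 9.90, 10.25, 8.21, 9.70 and 8.005, low in replicates 4 and 6. Ier2 read 9.21, 8.83, 8.90, 7.65, 8.69 and 7.40, in the same division.

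Jun, a subunit of AP-1, read 7.88, 9.32, 9.19, 7.87, 8.69 and 8.001, and Myc, a growth factor-induced regulator, 8.19, 8.76, 6.79, 7.19, 7.11 and 6.68, each highest in replicate 2. Klf10 (7.74, 7.51, 8.30, 6.87, 7.74 and 6.51) had an SD above 0.5 and was not called (adjusted p = 0.0682, limma). The dual phosphatase Dusp6 is outside the list and was picked after its values were seen. It read 9.54, 9.78, 9.29, 8.43, 8.46 and 8.15 and its second probe set 9.47, 9.60, 9.12, 8.39, 8.32 and 8.02, with replicates 1 and 2 highest on each. As a list the 23 immediate early genes read lowest in replicate 6, where 11 had their lowest value against 20.03% of all genes. Their mean deviations were 0.18, 0.20, 0.069, -0.22, 0.088 and -0.33 in replicates 1 to 6.

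The promoters of Egr1 and Dusp1 are shown for the motifs known from this response, over the 150 bases before the start site. In Egr1 (chr18:26736928-26737077, plus strand) capitals mark the CArG box, the binding motif of serum response factor, on both strands, starting at -105 and -83. In Dusp1 (chr10:17184703-17184852, plus strand) they mark the cyclic AMP response element, TGACGTCA, at -124. Among all 33469 genes with a promoter sequence 1.5% held a CArG box and 1.59% the cyclic AMP element in 250 bases. Among the 13242 measured on the array the shares were 1.34% and 2.5%. In the list they were held by 4 and 3 of 14 genes. Sequences are from RefSeq, build GRCr8.
Egr1: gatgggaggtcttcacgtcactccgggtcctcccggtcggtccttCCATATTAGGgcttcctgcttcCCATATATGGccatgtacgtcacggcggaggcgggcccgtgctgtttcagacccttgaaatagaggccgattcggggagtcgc
Dusp1: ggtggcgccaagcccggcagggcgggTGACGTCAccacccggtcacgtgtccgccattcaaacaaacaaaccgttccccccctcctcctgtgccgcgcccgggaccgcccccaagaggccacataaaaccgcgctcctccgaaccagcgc

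Interferon response genes are induced after viral RNA is sensed and include antiviral enzymes and parts of the antigen-processing machinery. Over all 6 arrays they had the largest median SD of the 38 lists, 0.45, and 12 of 26 had an SD above 0.5, against 1.21% of all genes. Of the 26, 5 were called (Mx2, Oas1a, Usp18, Rtp4 and Psmb8). Replicate 1 had the highest value for 21 of the 26, against 21.8% of all genes, and replicates 2 and 3 had the lowest for 12 each. The mean deviations in replicates 1 to 6 were 0.57, -0.51, -0.49, 0.19, 0.27 and -0.028. Without replicate 1 the count with an SD above 0.5 was 8 and the median SD 0.36, below the 0.43 of glucocorticoid genes. Without replicate 2 the count was 9 and the median SD 0.41, below the 0.47 of MHC class II genes. The poly-A spikes, given above, were also highest in replicate 1 and lowest in replicates 2 and 3, with smaller deviations on these 3 arrays, and their part in this order was not tested.

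Mx2, an antiviral GTPase, read 7.02, 4.63, 4.96, 6.29, 6.83 and 5.19 (adjusted p = 0.0208, limma). Its second probe set read 6.27, 5.16, 4.92, 5.52, 6.07 and 5.92, also highest in replicate 1. Usp18, which removes ISG15 from proteins and dampens the receptor, read 7.40, 5.55, 5.62, 7.13, 7.44 and 7.17, with replicates 2 and 3 apart from the other 4. Rtp4 read 9.81, 8.01, 7.92, 9.23, 9.31 and 8.89, in the same split. Oas1a, which makes the activator of RNase L, read 6.95, 5.36, 4.93, 6.42, 6.84 and 6.26, again with replicates 2 and 3 lowest. Psmb8, an immunoproteasome subunit, read 10.08, 8.26, 8.64, 9.47, 9.11 and 8.58.

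Irf7 (8.11, 6.66, 6.93, 7.70, 8.08 and 7.66) and Ifit3 (5.22, 3.72, 4.04, 4.85, 5.29 and 4.92) showed replicates 2 and 3 lowest without being called (adjusted p = 0.0886 and 0.12, limma). So did Isg15 (7.66, 6.26, 6.13, 7.04, 7.13 and 6.77), the ubiquitin-like modifier. Ifi27 (12.57 ± 0.33) was the brightest member and Oas1b (3.60 ± 0.35) the dimmest. Ifit1 (5.67 ± 0.18) and Cxcl11 (9.05 ± 0.12) varied little, so the list was not uniform.

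Macrophage markers shared part of this order. The mean level of the 12 Kupffer cell and macrophage markers ranged from 8.46 in replicate 3 to 8.97 in replicate 1, replicate 1 was highest for 8 of the 12, and replicates 2 and 3 were lowest for 5 and 6. Lyz2, the macrophage lysozyme, was the only one of them with an SD above 0.5, at 10.84, 10.09, 9.12, 10.25, 10.82 and 10.50. Lymphocyte markers had mean levels of 4.58 to 4.89, lowest in replicate 2 for 7 of 14. Their part in the interferon result was not tested.

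Of 20 interferon list genes with a RefSeq promoter, 12 held the core of the interferon-stimulated response element, searched as GAAANNGAAA on both strands, in the 250 bases before the start, where 3.41% of 33469 genes held it. The last 100 bases before the start site are shown for 4 of them, with the motif in capitals; in Oas1a 2 matches overlap. The regions are chr12:41330366-41330465, plus strand for Oas1a, chr1:241527226-241527325, plus strand for Ifit3, chr1:205800024-205800123, minus strand for Irf7 and chr2:234005627-234005726, plus strand for Gbp2, in build GRCr8.
Oas1a: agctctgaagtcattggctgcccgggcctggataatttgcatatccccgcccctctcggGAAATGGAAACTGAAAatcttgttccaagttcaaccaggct
Ifit3: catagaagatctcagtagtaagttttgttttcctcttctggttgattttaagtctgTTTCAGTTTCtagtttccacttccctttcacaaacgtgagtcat
Irf7: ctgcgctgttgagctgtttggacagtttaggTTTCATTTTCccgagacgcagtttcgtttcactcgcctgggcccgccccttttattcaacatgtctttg
Gbp2: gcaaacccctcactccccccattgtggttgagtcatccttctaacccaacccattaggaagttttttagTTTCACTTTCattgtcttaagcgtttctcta

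MHC class II genes, which present peptides to helper T cells, had a median SD of 0.42 over 8 members. The list was highest in replicate 1 for 6 of 8 and lowest in replicate 6 for 6 of 8, with mean deviations of 0.81, 0.0035, -0.32, -0.18, 0.058 and -0.37. RT1-Bb read 7.31, 4.30, 3.72, 3.77, 4.19 and 4.14, so a signal well above the floor was seen in replicate 1 alone, while its second probe set stayed between 4.14 and 4.59. Cd74, the invariant chain, read 10.26, 9.67, 9.20, 9.34, 9.70 and 9.21 and RT1-Da 10.36, 9.80, 9.29, 9.65, 9.88 and 9.16. Without replicate 1 the median SD of the list was 0.24. Macrophage markers were highest in that array as well, as given above, and their part was not tested.

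Stellate cell and fibroblast markers differed between arrays as a block. Replicate 2 was highest for 13 of 16 and replicate 3 lowest for 12 of 16, against 17.9% and 18.9% of all genes, and the mean level ranged from 6.80 in replicate 3 to 7.73 in replicate 2. Lum, a collagen-binding proteoglycan, read 6.07, 7.40, 4.33, 5.64, 5.52 and 4.44 (adjusted p = 0.0158, limma). Dcn, a related proteoglycan, read 6.02, 7.55, 5.06, 5.80, 6.46 and 5.87 and Tagln, a smooth muscle protein, 6.68, 7.93, 5.58, 6.34, 5.998 and 6.11. All 3 were called and highest in replicate 2. Col1a2 (8.24, 8.77, 7.15, 8.16, 8.29 and 7.92) had an SD above 0.5 and was not called. Without replicate 2 the count with an SD above 0.5 was 2 of 16, against 4 with all arrays.

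Sinusoidal endothelial markers did not share that order, with mean levels between 7.98 and 8.06 on every array and no SD above 0.5. H19 and the fat-cell and capillary fatty acid carrier Fabp4 (4.91, 6.17, 4.07, 4.25, 3.61 and 4.01) were highest in replicate 2 too, as was the matrix protein gene Efemp1 (4.15, 5.82, 3.04, 3.34, 4.73 and 3.27). Igfbp2, a binding protein of insulin-like growth factors, read 7.60, 9.49, 7.22, 7.06, 7.95 and 6.82, again highest in replicate 2. These 3 were picked after their values were seen. Among the 67 called genes 23 were highest in replicate 2, more than in any other array, so sharing that array was common among called genes.

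Some genes of the amino acid response, which the factor ATF4 drives when amino acids are scarce, were low in replicate 3. Asns, asparagine synthetase, read 7.54, 8.24, 5.53, 7.37, 7.69 and 7.22 (adjusted p = 0.0203, limma). Phgdh, the first enzyme of serine synthesis, read 8.60, 9.29, 6.99, 8.69, 8.76 and 8.59, and Psat1, the next enzyme, 7.28, 8.20, 6.36, 7.37, 7.88 and 7.58. Replicate 3 was the lowest array for all 3. It was lowest for 9 of the 17 genes of their list, which also holds ER stress genes, against 18.9% of all genes. Trib3 (6.14, 7.34, 7.10, 6.43, 7.44 and 7.46) did not follow, being lowest in replicate 1. Without replicate 3 the count with an SD above 0.5 went from 4 to 1. In the same array the serine-degrading Sds was high (7.23), as was Gpt, an alanine transaminase (8.59, 9.18, 10.13, 9.20, 9.28 and 8.97).

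Glucocorticoid response genes had a median SD of 0.43, and 6 of 15 had an SD above 0.5. Mt2A, a zinc-binding metallothionein, read 9.46, 9.76, 8.75, 8.38, 9.66 and 7.20, lowest in replicate 6 (adjusted p = 0.0105, limma). Igfbp1, a fasting- and glucocorticoid-induced binding protein, read 9.55, 9.39, 9.33, 9.86, 8.78 and 7.999, also lowest in replicate 6. Lcn2, an iron-siderophore carrier of the acute phase, read 4.81, 3.94, 5.08, 5.33, 6.30 and 6.05, and here replicates 5 and 6 were highest. Ddit4 (6.64, 8.01, 6.69, 7.35, 8.15 and 7.53) had an SD above 0.5 without being called. The list read highest in replicate 5, by a mean of 0.30, where 6 of 15 had their highest value against 13.3% of all genes. Less variable members were Fkbp5 (6.59 ± 0.18), Per1 (5.36 ± 0.11) and Tsc22d3 (9.001 ± 0.19).

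The promoter of Mt2A is shown for its matches to the core of the metal response element, TGCACNC or TGCGCNC on both strands, in capitals at -220, -165, -111 and -55. In the 250 bases before the start 20.6% of genes in the table held such a match, and 29.1% of the 13242 genes measured on the array. The region is chr19:10838709-10838958, minus strand, in RefSeq build GRCr8. A probe set shared by several metallothionein symbols, 1371237_a_at, read 11.99, 11.93, 10.77, 11.03, 11.87 and 9.21, with replicate 6 lowest as for Mt2A.
Mt2A: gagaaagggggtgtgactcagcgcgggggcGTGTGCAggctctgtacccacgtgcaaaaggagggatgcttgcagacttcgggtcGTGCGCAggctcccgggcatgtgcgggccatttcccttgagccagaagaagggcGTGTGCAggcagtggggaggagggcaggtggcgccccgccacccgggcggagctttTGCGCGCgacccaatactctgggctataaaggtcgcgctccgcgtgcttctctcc

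Fgf21, which the liver secretes in fasting and protein shortage, read 7.22, 8.55, 6.40, 7.41, 9.05 and 6.41, high in replicates 2 and 5. The other 19 fasting and PPAR alpha genes had SDs of at most 0.5, among them Pdk4 (9.21 ± 0.49) and Angptl4 (10.17 ± 0.48). Acadm (12.38 ± 0.033), a mitochondrial acyl-CoA dehydrogenase, was among the steadiest. As a list these genes read lowest in replicate 6, by -0.27.

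Lipid synthesis genes divided the arrays in 2 ways. Fatty acid synthesis genes were highest in replicate 1 for 12 of 21 (21.8% of all genes), with a mean deviation of 0.25, and Scd, the stearoyl-CoA desaturase, read 11.47, 10.26, 9.70, 10.33, 10.59 and 9.44 (adjusted p = 0.0208, limma). Pnpla3, a lipid droplet enzyme, read 6.33, 4.87, 5.01, 5.29, 4.74 and 5.37, with replicate 1 high, and was not called. Without replicate 1 none of the 21 had an SD above 0.5, against 2 with all arrays. Cholesterol synthesis genes were highest in replicate 6 for 13 of 19 (16.3% of all genes), with a mean deviation of 0.34. Insig1, the sterol-sensing anchor, read 10.52, 10.45, 10.86, 11.51, 10.87 and 11.39 and Msmo1, a sterol demethylating oxidase, 11.41, 11.83, 11.26, 11.82, 11.79 and 12.31. None of the 19 had an SD above 0.5, and without replicate 6 the median SD of the list went from 0.235 to 0.14.

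Cyp7a1, which sets the pace of bile acid synthesis, read 10.48, 10.83, 9.30, 10.73, 10.74 and 11.21, with replicate 3 below the other 5 (adjusted p = 0.0262, limma). Cyp8b1 (10.93 ± 0.22), which sets the share of cholic acid, and Cyp27a1 (11.23 ± 0.11) varied less. Abcg8 (5.99, 5.67, 7.02, 6.44, 6.79 and 6.95), a subunit of the sterol exporter, had an SD above 0.5 and was not called. Abca1, which loads cholesterol onto apolipoproteins, read 10.29, 9.62, 10.31, 8.33, 10.34 and 10.11, with replicate 4 low. Only 1 of its 3 other probe sets had its lowest value in replicate 4 too.

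Of 33 cell cycle genes 10 were near the floor, close to the 31.2% of all genes. The list was highest in replicate 6 for 23 of 33, against 16.3% of all genes. The list's mean deviations were 0.19, -0.11, -0.12, -0.20, -0.14 and 0.39. Ccnb2, a mitotic cyclin, read 6.91, 6.07, 5.74, 5.54, 5.86 and 7.04, Cdkn3 6.87, 6.02, 6.16, 5.59, 5.98 and 7.36 and Ccna2 4.65, 4.27, 4.56, 4.15, 4.31 and 5.70. Replicate 6 was highest for all 3 and none was called. Mki67 (4.37 ± 0.45) was near the floor, and Ccnd1 (9.45 ± 0.38), the growth factor-driven cyclin, was the brightest. Without replicate 6, 1 of the 33 had an SD above 0.5, against 3 with all arrays.

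Clock genes, which cycle over the day, had a median SD of 0.15, against 0.129 over all genes. Their mean was lowest in replicate 6, by -0.086, and only the repressor Nr1d2 (7.25, 7.23, 6.96, 7.12, 7.53 and 5.99) had an SD above 0.5, with replicate 6 low. Clock (8.54 ± 0.063) and Per2 (7.03 ± 0.078) were among the steadiest, and Dbp (4.30 ± 0.12) and Nr1d1 (4.65 ± 0.20) were near the floor. Of 14 heat shock chaperones, 15 antioxidant genes of NRF2 and 9 aryl hydrocarbon receptor targets none had an SD above 0.5. Over all genes 1.21% did, so in lists this short none is no result. The median SDs of the 3 lists were 0.182, 0.198 and 0.183, each above the 0.129 of all genes. The widest member of each was Dnajb4 (7.71 ± 0.39), Gsta3 (7.35 ± 0.35) and Ahr (5.02 ± 0.38).

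The acute phase list was bright, with a median level of 12.54, and had a median SD of 0.149, against 0.129 over all genes. Replicate 3 was highest for 10 of the 19 measured members, against 15.5% of all genes. Without that array the median SD was 0.095. Of the 19, 2 had an SD above 0.5. A2m, a protease inhibitor that inflammation induces in rats, read 9.57, 10.10, 9.80, 8.003, 8.80 and 9.24, with replicate 4 lowest (adjusted p = 0.0216, limma), and the other was Lcn2. Hp, Fga and Crp (12.64 ± 0.073) stayed steady. Serpina7, the thyroxine-binding globulin, outside the list, read 9.87, 11.31, 10.56, 9.51, 9.55 and 8.69, and Hhex, a liver transcription factor, 10.49, 11.02, 11.17, 9.52, 9.30 and 9.70. Retsat, a retinol saturase, read 11.30, 9.70, 11.46, 11.56, 11.99 and 12.02, with replicate 2 low. The last 3 were picked after their values were seen.

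Lists of plasma proteins and constant machinery had median SDs below that of all genes (0.129), and they are also brighter. Plasma proteins had 0.056, the respiratory chain 0.071, proteasome subunits 0.073 and ribosomal proteins 0.10. Probe sets of like level had median SDs of 0.054 at means of 13 to 15, where most plasma proteins lie, 0.093 at 12 to 13, where the ribosomal median of 12.37 lies, and 0.102 at 10 to 12, where the medians of the other 2 lists lie. The first list and the ribosomal one were thus no steadier than probe sets of like level. Small shared shifts were still visible there. Of 34 listed ribosomal proteins 25 read lowest in replicate 3 and 22 highest in replicate 2, with mean deviations of -0.12 and 0.11. Of 40 respiratory chain genes 24 read lowest in replicate 5, with a mean deviation of -0.058. Of the 38 lists 32 had a median SD above that of all genes.

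**Figure D5:**
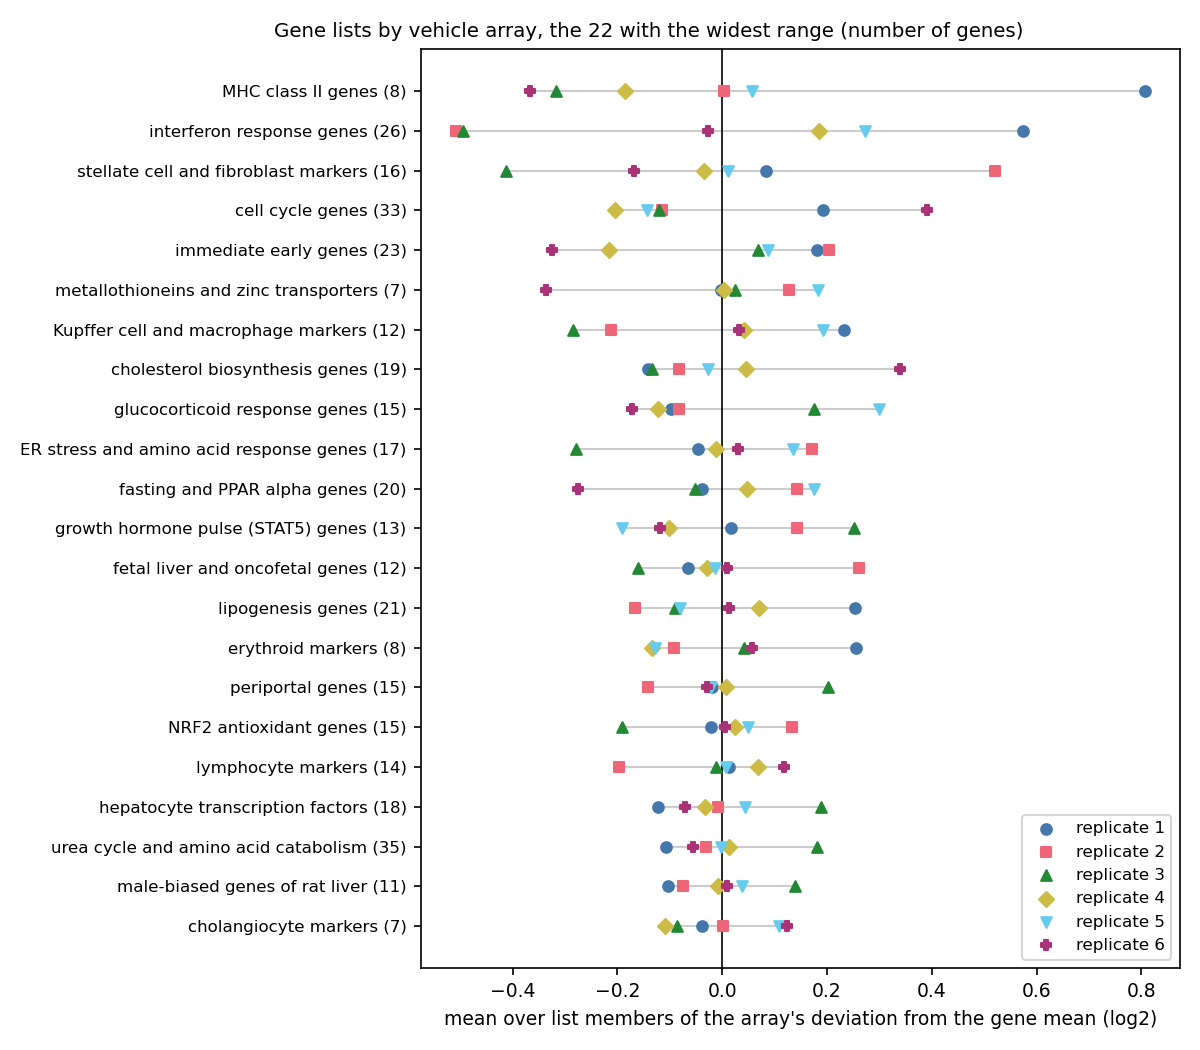
Mean deviation of each gene list on each vehicle array (x axis, log2, as the mean over members of the array's value minus the gene's mean), for the 22 lists with the widest range between arrays. MHC class II genes reach 0.81 in replicate 1, interferon response genes 0.57 in replicate 1 and -0.51 in replicate 2, and stellate cell markers 0.52 in replicate 2 and -0.41 in replicate 3.

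A second probe set of the same gene reads the same RNA with other probes. Among 33 genes whose 2 brightest probe sets both had means of at least 5 and whose brightest had an SD above 0.5, the highest array was the same in 22 (66.7%) and the lowest in 21 (63.6%). Among 2034 genes with an SD of 0.2 or less these shares were 34.4% and 31.8%. Egfr, the epidermal growth factor receptor, read 10.15, 9.89, 10.84, 10.87, 11.34 and 11.16 and its second probe set 9.33, 9.85, 10.83, 10.71, 11.16 and 10.81, with replicates 1 and 2 lowest on each. Another of its probe sets, dimmer, lay between 6.57 and 6.76 with no such order. Lox, which cross-links collagen, read 8.80, 6.70, 8.13, 8.56, 7.57 and 7.95 and 7.30, 5.72, 6.87, 6.86, 6.01 and 6.87, highest in replicate 1 and lowest in replicate 2 on each. These pairs were chosen after their values were seen. Probe sets of a gene could also disagree in level. A second probe set of Apoe lay between 2.76 and 3.35, and a further one of Rup2 read 10.05, 10.44, 11.21, 8.31, 8.27 and 7.85, against a mean of 14.10 on its brightest.

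Some of the most variable probe sets carry no single gene name. Probe set 1370988_at read 6.85, 6.75, 11.995, 6.64, 6.25 and 6.50, high in replicate 3 alone, with an SD of 0.235 without that array. Probe set 1389990_at read 5.34, 5.78, 9.29, 5.42, 5.54 and 5.10, with the same array high. Probe set 1370428_x_at, assigned to several MHC class I symbols, read 10.62, 10.02, 10.20, 10.46, 3.99 and 10.31, and the low array was replicate 5, as for Ugt2b. Probe set 1368718_at read 6.84, 9.46, 7.60, 8.96, 4.33 and 8.18, also lowest in replicate 5. Of the 105 called probe sets 26 had no single symbol. That is a smaller share than over all 31042 probe sets, where 9780 had no symbol and 436 had several.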

How the data were processed

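Liver RNA (100 ng, RIN at least 7.0) was labelled with a 3′ in vitro transcription kit and hybridised, per the labels' protocols. The authors deposited 1 table of log2 values, with 1 value per probe set and array, and RMA and affy are named per the submitters' processing notes. Versions and the genome build are not given in the sources used here. RMA normalizes across arrays, so the vehicle values may have been set together with those of the 30 dosed arrays. Which arrays were normalized together was not checked, and the dosed arrays were not used otherwise. The 57 control probe sets were left out. The array annotation gave 1 symbol for 20826 probe sets, several for 436 and none for 9780, and 20758 were matched to RefSeq by gene ID. A gene is its brightest probe set unless stated.

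Means, SDs, ranks and the variance test (limma 3.58.1 in R 4.3.3) were computed on the 6 vehicle arrays, with the rest in Python 3.11.15 and figures in matplotlib 3.10.9. Arrays give no read depth, and their number limits the precision. How many variable probe sets the variance test missed on these arrays, and how many of its calls were false, was not tested. Named genes were the 4 markers, the 20 brightest, the 20 most variable with a mean of at least 5, the 5 steadiest with a mean of at least 8, extremes of each list and family, bright members of dim families and list members with an SD above 0.5. The gene lists, families and rules were chosen with earlier results of these data known. Alternatives covered thresholds, normalization, filters, the probe set of a gene, the spread measure and leaving out each array. List levels by array and list spreads without each array were added after seeing the data.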

Additional observations from a re-analysis of the deposited data

Results flagged for a closer look

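For 348 genes (those that the naming rule picks and all called genes), 38 list means and 5 measures of whole arrays, a Dixon test at 95% asked whether the highest or lowest of the 6 arrays stood apart from the other 5. Of these 391 values 28 were flagged, 24 of them genes. The usual rate of about 1 in 20 by chance does not apply to genes picked for their spread, so no excess is read from the count.

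Ugt2b was low in replicate 5 (5.36, next lowest 12.97). In replicate 1 the low genes were Clca2 (5.49, next 7.59), Enpp1 (7.73, next 9.07), Pcp4l1 (5.69, next 7.48), Tstd1 (5.98, next 7.73) and the potassium channel gene Kcns2, near the floor (2.41, next 2.67). In replicate 2 Retsat was low (9.70, next 11.30). In replicate 3 Serpinb9b (4.77, next 8.11) and Phgdh (6.99, next 8.59) were low. In replicate 4 Ubd (5.08, next 7.19), Cyp2c12 (9.78, next 11.28) and Abca1 (8.33, next 9.62) were low. In replicate 6 Nr1d2 was low (5.99, next 6.96), and so was Tram1, one of the steadiest genes, by a small gap (12.17, next 12.19).

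High single arrays were seen for Cxcl1 (7.45, next highest 5.42), RT1-Bb (7.31, next 4.30) and Il4r (8.60, next 8.35) in replicate 1, and for H19 (8.72, next 6.46), Epcam (9.02, next 8.75) and Ugt2b35 (13.45, next 13.31) in replicate 2. In replicate 3 Sds (7.23, next 6.12) and Sult1c2 (9.10, next 8.15) were high, in replicate 5 Folr2 (6.73, next 6.25) and in replicate 6 Ccna2 (5.70, next 4.65).

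Among lists, 3 of the 4 flagged means were low in replicate 6. Their mean deviations were -0.16 for gluconeogenesis, glycolysis and glycogen, -0.086 for clock genes and -0.34 for metallothioneins and zinc transporters. MHC class II genes were high in replicate 1, at 0.81 against 0.058 for the next array.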

How the results depend on the processing

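No paired analysis was possible because the 6 vehicle arrays are 1 group that is compared with no other. The share of probe sets near the floor was 31.8% with a limit of 4, 62.3% with a limit of 6 and 31.2% over the brightest probe set of each gene. The median SD was 0.129 at a mean of at least 5 and over brightest probe sets, 0.111 by the median absolute deviation, and 0.129 to 0.132 with each array left out. The count with an SD above 0.5 was 172 over brightest probe sets and ran from 263 to 349 with an array left out. The count of called probe sets moved most, to 14 with no trend, 5 at a mean of at least 5, 48 over brightest probe sets, 23 at an adjusted p under 0.01 and 53 to 102 with an array left out, replicate 6 giving the lowest. It was 92 with array medians subtracted and 94 after another quantile normalization. Of the 20 brightest genes 16 to 20 were kept under each alternative. With 6 arrays and no read depth, a dim probe set gives no bound on RNA, and spread between animals and between arrays cannot be told apart.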

Other observations

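Several groups outside the comparisons above gave readable levels. Of 12 fetal and oncofetal genes 5 were near the floor, including Igf2bp1 (2.84 ± 0.15), an RNA-binding protein of the embryo, and Dlk1 (3.80 ± 0.078), a surface marker of hepatoblasts. Afp, the fetal counterpart of albumin, read 8.98, 8.54, 8.34, 8.41, 8.15 and 8.27 in replicates 1 to 6, well above the floor on every array. Gpc3, a proteoglycan of fetal liver, read 3.53, 5.14, 3.72, 4.10, 4.77 and 3.93, highest in replicate 2 as H19 was, and was not called (adjusted p = 0.125, limma).

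Genes of the liver's zones were bright at both ends of the lobule. Of the pericentral list Cyp2e1 (13.65 ± 0.11) and Rgn (13.17 ± 0.052), a calcium-regulated lactonase, were the brightest, and Lgr5 (3.48 ± 0.23), a Wnt target, was at the floor. Of the periportal list Pigr, the receptor that carries IgA into bile, read 13.03, 13.07, 13.18, 13.11, 13.08 and 12.94, with no array apart. Glul, the glutamine synthetase of the last pericentral cells, read 10.75, 11.27, 11.17, 10.94, 11.01 and 11.22.

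Chemokine ligands had 9 of 28 members near the floor, close to the 31.2% of all genes, and 4 of the 28 read at least 8, against 3669 of all 14217 genes. Ccl9 (12.55 ± 0.12) and Ccl6 (10.99 ± 0.26), rodent macrophage chemokines, and Cxcl12 (11.68 ± 0.18), which retains blood precursors, read above 10. Ccl20 (3.44 ± 0.14) and Ccl11 (3.002 ± 0.071) were near the floor.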
